A study of Mus musculus with 22 samples.

Results

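Zinc finger genes numbered Zfp900 to Zfp999 were followed in mouse embryonic stem cells that lacked Dux and carried an inducible DUX transgene. The genes were chosen by name alone: protein-coding genes present in both deposited tables whose GENCODE M21 symbol is Zfp9 and exactly 2 more digits. There were 63 such genes among 55487 rows. A value of at least 10 normalised reads in at least 2 libraries was required for testing, and 61 of the 63 met it in each table. Zfp935 and Zfp957 did not: Zfp957 reached 4.52 normalised reads at most, in a C1C3c library, and Zfp935 reached 1.88, in a C1C3b library.

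The cell line was Dux-/-, and every group carried that deletion. Each transgene coded for the red fluorescent protein mCherry, alone or joined to DUX or a DUX derivative, and all groups recovered for 24 hours and then received 0.25 ug/mL doxycycline for 12 hours in 2iLIF medium. The chimera table holds 14 libraries of 7 groups: mCherry alone, FL Dux, C3+14, C1+14, C1C3a, C1C3b and C1C3c. In the other, called the deletion table here after its construct names, are 8 libraries of 4 groups: FL Dux, C12345delt14, deltC12345+14 and deltC12345delt14. Some labels write the 14 as 14aa, for amino acids; they do not define FL, delt, C1 to C5, a, b or c further, nor say whether a line was 1 clone. Each group had 2 replicates, and the labels do not say that these came from separate cultures, so p-values measure the spread between these samples, which may be technical. The FL Dux libraries are the same in both tables, and mCherry is in the chimera table only. The group C3delt14 was not analysed here.

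Most of these genes code for KRAB zinc finger proteins. Such a protein binds DNA through an array of C2H2 zinc fingers, and its KRAB domain recruits the co-repressor TRIM28 and, through it, histone methylation that silences chromatin. Many KRAB zinc finger genes arose by local duplication, sit in clusters and are known for silencing retrotransposons in embryonic stem cells. DUX is a homeodomain transcription factor that switches on genes and retrotransposons of the 2-cell embryo.

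A KRAB-like pattern was present in the longest reading frame of 59 of the 63 genes, the exceptions being Zfp956, Zfp974, Zfp935 and Zfp957. The median gene had 11 C2H2 patterns and the highest had 21. Of the 63 genes, 45 lay in 6 clusters, within which neighbouring starts were at most 1 Mb apart, and 18 stood alone. In GRCm38 the chromosome 4 cluster held 16 genes (chr4:145510759-147848366), the chromosome 2 cluster 10 (chr2:175372436-178078476) and the chromosome 17 cluster 10 (chr17:21567008-22867134). The chromosome 7 cluster held 4 (chr7:42579783-43192109), the chromosome 8 cluster 3 (chr8:69209038-69749970) and the chromosome 13 cluster 2 (chr13:62453715-62571199). Close copies can divide reads between them, and how the authors counted such reads is not given in the sources used here. The median gene of the chromosome 2 cluster shared 87.3% of its 50-base exon words with other genes, against 61.2% on chromosome 4 and 7.81% on chromosome 17. Under 20% was shared by 31 of the 63 genes, which are called low sharing below; Zfp967, Zfp969 and Zfp935 shared all of theirs.

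The sequences just upstream of 2 pairs of genes show how close such copies are. Zfp972 is printed with Zfp971 because Zfp972 went against the rest of its cluster; Zfp980 and Zfp979 are the closest pair among the 10 chromosome 4 genes with a RefSeq promoter and both fell in FL Dux. The 250 bases before each RefSeq start (GRCm38.p6) are given 5′ to 3′ on the gene's own strand. Capitals mark bases that differ from the other gene of the pair or have no partner in the alignment. Zfp972 lies on the minus strand (chr2:177925651-177925900) and Zfp971 on the plus strand (chr2:178023034-178023283), and the pair was 79.6% identical.
Zfp972: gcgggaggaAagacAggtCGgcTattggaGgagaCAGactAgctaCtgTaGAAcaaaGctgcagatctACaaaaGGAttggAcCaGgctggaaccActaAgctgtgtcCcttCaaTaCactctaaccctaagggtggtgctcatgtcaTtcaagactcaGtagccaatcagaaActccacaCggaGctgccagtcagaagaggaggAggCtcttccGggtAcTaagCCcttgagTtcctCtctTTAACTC
Zfp971: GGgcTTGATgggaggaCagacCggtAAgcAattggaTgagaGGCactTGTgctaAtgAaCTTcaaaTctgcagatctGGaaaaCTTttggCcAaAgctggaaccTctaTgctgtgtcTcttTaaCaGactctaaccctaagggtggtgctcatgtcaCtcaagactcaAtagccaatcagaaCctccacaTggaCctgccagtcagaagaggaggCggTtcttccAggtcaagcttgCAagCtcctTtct
Zfp980 lies on the plus strand (chr4:145670447-145670696) and Zfp979 on the minus strand (chr4:147642509-147642758), and the pair was 90.8% identical.
Zfp980: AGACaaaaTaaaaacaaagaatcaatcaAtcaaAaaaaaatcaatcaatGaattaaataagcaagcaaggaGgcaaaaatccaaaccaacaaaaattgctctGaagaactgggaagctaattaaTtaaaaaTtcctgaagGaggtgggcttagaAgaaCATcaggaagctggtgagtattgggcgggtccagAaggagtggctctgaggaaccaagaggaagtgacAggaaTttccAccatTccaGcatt
Zfp979: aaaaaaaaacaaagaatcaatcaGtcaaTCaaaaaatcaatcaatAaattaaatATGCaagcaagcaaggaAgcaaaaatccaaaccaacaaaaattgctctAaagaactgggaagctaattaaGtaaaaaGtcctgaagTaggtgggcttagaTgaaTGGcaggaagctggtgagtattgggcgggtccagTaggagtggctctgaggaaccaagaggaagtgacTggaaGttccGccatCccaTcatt
Identity to Zfp972 ranged from 65.6% to 79.6% over the 8 other chromosome 2 genes with a RefSeq promoter, while those 8 were 67.6% to 100% identical to each other (median 89.2%). The motif GATTNAATC, searched on both strands from 250 bases before to 50 after the start, was in 0 of 60 promoters of 53 matched genes and in 0.268% of all 32851 promoters. At so low a share most sets of 60 promoters would hold none, so the count does not set these genes apart.

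The chimera libraries held 21059953 to 32543856 reads each and the deletion libraries 27326760 to 40448890, and 1 read was worth 0.620 to 1.81 normalised reads. Libraries differed in kind. Reads from 1552 genes with many near-identical copies, none of them a Zfp900 to Zfp999 gene, made up 0.293% to 0.407% of 6 library columns and 1.65% to 2.56% of the other 16. The low columns were both C3+14, both mCherry, deltC12345+14 replicate 2 and deltC12345delt14 replicate 1, so in the chimera table kind and transgene cannot be told apart except between C3+14 and mCherry and among the other groups. The 8 pluripotency markers, which check the labelled cell type, were above 0 in every library and summed to 29445 to 88944 normalised reads in the chimera libraries and 47461 or more in the deletion libraries. The 7 fibroblast markers summed to 35.4 to 183 and 78.9 to 266.

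The C1+14 replicates disagreed on these genes. Replicate 2 was lower than replicate 1 at 58 of 61 genes, with a median log2 difference of -1.18, and 39 differed by at least 2-fold. Other Zfp genes differed by a median of -0.20 between the same libraries and all genes by 0.01. Of all 21584 genes, 9405 were lower in replicate 2 and 2751 differed by at least 2-fold. Of 286 other Zfp genes, these counts were 194 and 46. The difference between the C1+14 replicates was present in the chromosome 2 (median -1.58), chromosome 4 (-1.24), chromosome 7 (-1.39) and chromosome 17 (-1.02) clusters, was smaller in the chromosome 8 cluster (-0.34), Zfp934 of chromosome 13 (-0.77) and the genes that stand alone (-0.90), and was present among the 46 other coding genes inside the cluster spans (-1.32). In deltC12345delt14, replicate 2 was lower at 54 of 61 genes with a median of -0.69, and these libraries were also of different kinds. Over all 19833 genes, replicate 2 of that group was lower at 8229, with a median of 0.02. The 8 pluripotency markers summed to 66711 and 63155 normalised reads in the C1+14 replicates. Between the replicates of the remaining groups the median ran from -0.10 to 0.37. Counts of these genes called in comparisons that use C1+14 or deltC12345delt14 are therefore given with and without each of their replicates.

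**Figure D1:**
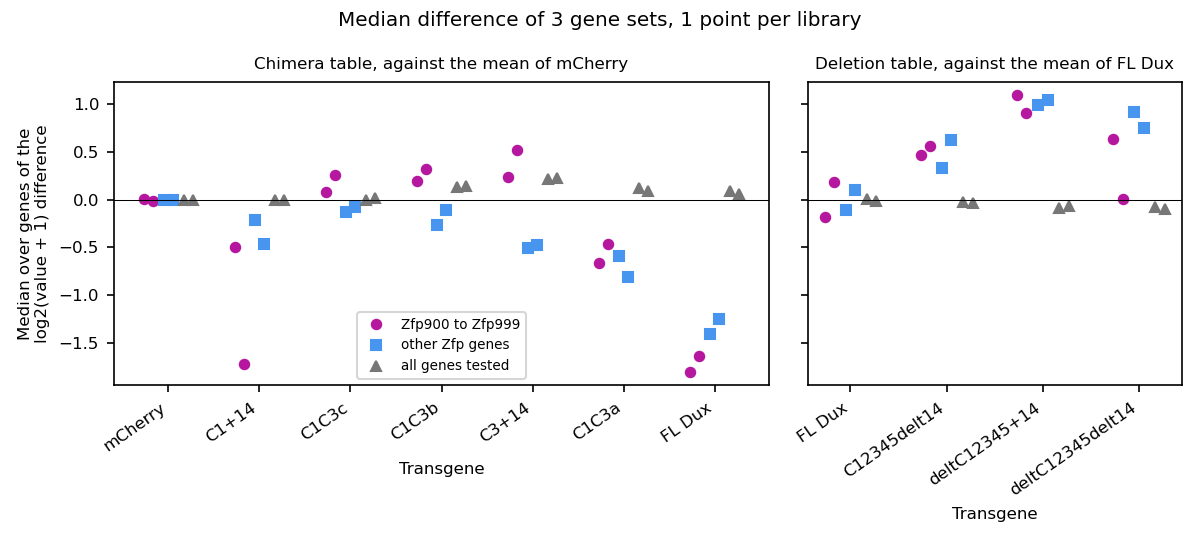
Median over genes of the difference in log2(value + 1) from the mean of mCherry (chimera table, left) or FL Dux (deletion table, right), with 1 point per library, for the Zfp900 to Zfp999 genes, other coding Zfp genes and all genes tested. The C1+14 points of the Zfp900 to Zfp999 genes lie at -0.49 and -1.72, and the FL Dux points at -1.80 and -1.64.

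In cells with mCherry alone the chromosome 4 cluster held the most abundant of these genes. Per kb of exon, mean normalised reads in mCherry were 3004 for Zfp990, 2875 for Zfp980 and 2546 for Zfp978. Over the 14 chimera libraries the highest mean levels per kb were those of Zfp972 (4435), Zfp978 (2330) and Zfp990 (1933). The rank of Zfp972 came from a few groups: its mean level per kb was 25136 in FL Dux and 26.6 in mCherry. It was the one gene of the 63 with a KRAB pattern and no zinc finger pattern, in a longest reading frame of 139 residues.

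In FL Dux nearly the whole group fell while Zfp972 rose. Against mCherry, 52 of 61 genes were called lower (85.2%) and 1 higher, where called means a limma adjusted p under 0.05 and at least 2-fold. Among all 21584 genes tested, 19.6% were called lower and 24.5% higher. The median log2 difference was -1.58 for the 61 genes and 0.09 for all genes. Of the 8 pluripotency markers, 6 were also called lower (median -1.80), with sums of 38589 and 54797 normalised reads in FL Dux and 88609 and 88944 in mCherry, and all 6 markers of 2-cell-like cells were called higher; their part in the result was not tested. FL Dux libraries, like those of C1C3a, C1C3b, C1C3c and C1+14, are of a different kind from mCherry libraries. The part of kind in the differences of these groups from mCherry cannot be told apart from that of the transgenes. In bulk RNA, fewer cells that express a gene and less RNA per cell cannot be told apart. Other coding Zfp genes had 168 of 286 called lower and 12 higher (median -1.41), and the other coding genes inside the cluster spans 39 of 46 and 2 (median -1.82). Among low-sharing genes 25 of 30 were called lower and 0 higher, which is 83.3%, against 87.1% of the high-sharing genes. Without FL Dux replicate 1, 40 were called lower. By cluster, the counts called lower were 15 of 16 on chromosome 4, 8 of 10 on chromosome 2, 8 of 10 on chromosome 17, 4 of 4 on chromosome 7 and 3 of 3 on chromosome 8. Of the genes that stood alone, 14 of 17 fell. Counts for FL Dux against C1+14, whose libraries are of the same kind, are given below.

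The 4 largest decreases came from 4 different places. Zfp976, in the chromosome 7 cluster (chr7:42609526-42642588), had 45.7 and 89.3 normalised reads in FL Dux and 759 and 752 in mCherry, a log2 difference of -3.54 (SE 0.35, limma adjusted p = 1.98e-06). Zfp944, in the chromosome 17 cluster, had 38.3 and 75 against 459.9 and 511, a difference of -3.15 (SE 0.34, limma adjusted p = 4.43e-06). Zfp951, alone on chromosome 5, had 69.2 and 152 against 827 and 775, a difference of -2.95 (SE 0.38, limma adjusted p = 1.79e-05). In each of these 3 genes both FL Dux libraries were far below both mCherry libraries, and FL Dux replicate 1 was the lower one. Zfp980, whose upstream sequence is printed above, had 1308 and 2090.3 in FL Dux and 11431 and 11606 in mCherry, a difference of -2.80 (SE 0.40, limma adjusted p = 4.63e-05). It shared 71.3% of its 50-base words with other genes, so its reads may include theirs. Zfp990, the most abundant member in mCherry per kb, had 1401 and 1722 against 10632 and 10385, a difference of -2.76 (SE 0.31, limma adjusted p = 5.97e-06). Zfp978 of the same cluster had 1046 and 1365 against 3099 and 3454, a difference of -1.45. The 8 tested genes not called were Zfp973, Zfp993, Zfp938, Zfp958, Zfp934, Zfp983, Zfp942 and Zfp950.

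**Figure D2:**
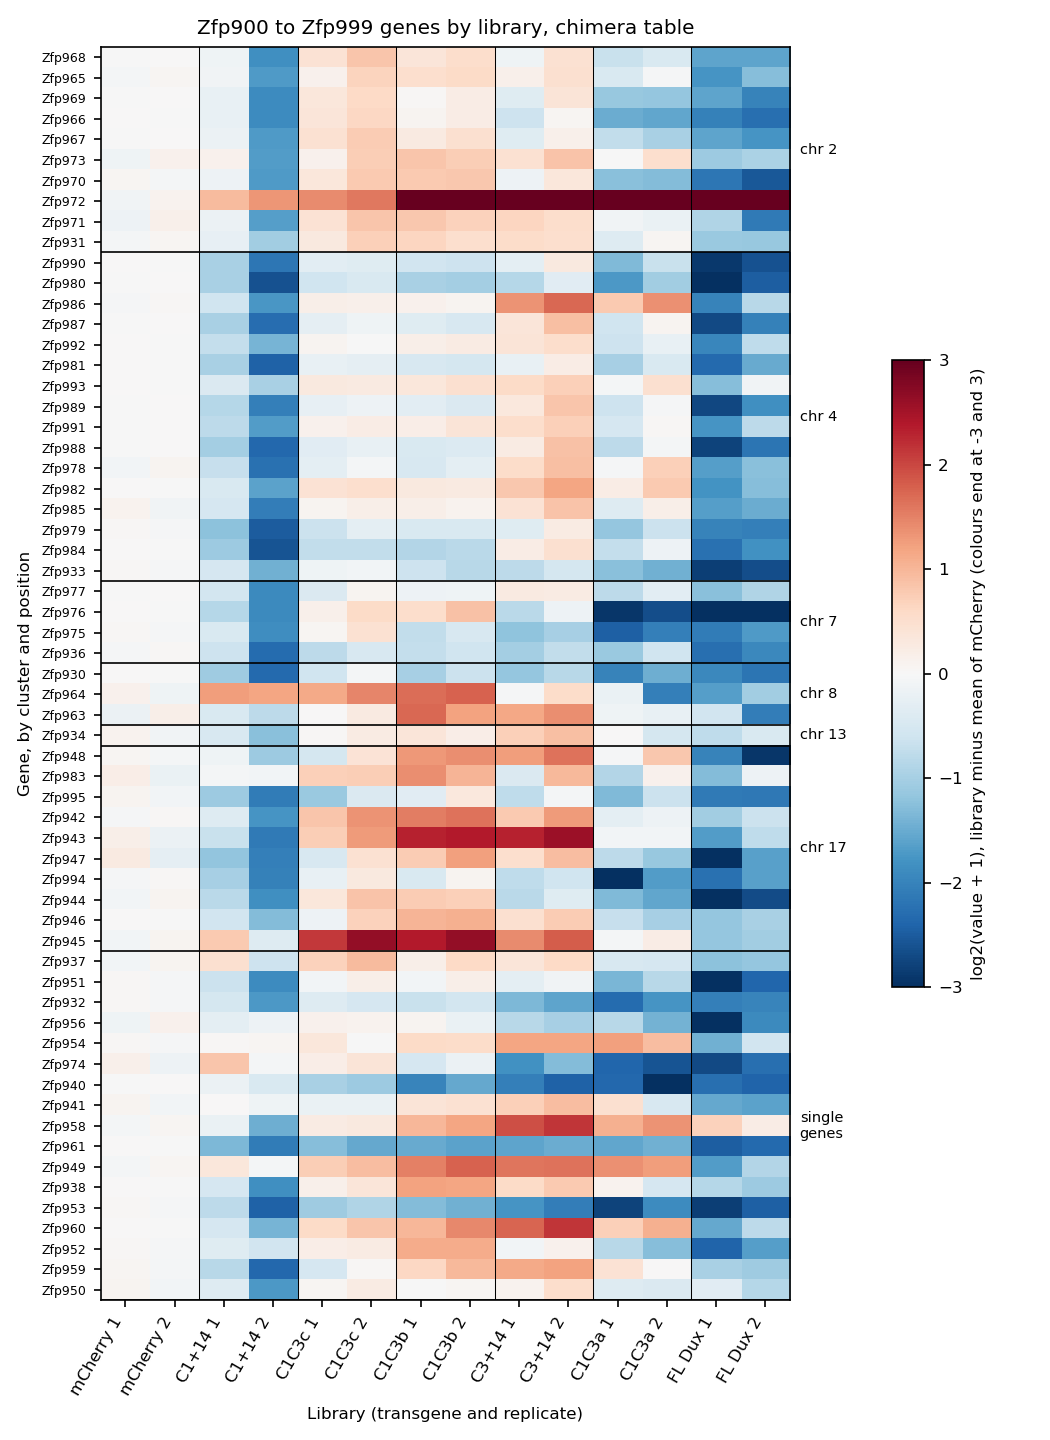
Difference in log2(value + 1) of the 61 tested genes (rows, by cluster and position) in each library of the chimera table (columns) from the mean of mCherry, with colours ending at -3 and 3. FL Dux columns are blue in nearly every row except Zfp972, and C1+14 replicate 2 is bluer than replicate 1.

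Zfp972 (ENSMUSG00000074529, chr2:177903340-177925613, minus strand) was graded across the constructs. It shared 55.7% of its exon words with other genes, and 26.8% with the processed pseudogene Gm14392 alone. Its reads may therefore include theirs, and how far they do was not tested. In the chimera table Zfp972 had 21.1 and 24.9 normalised reads in mCherry, 45.3 and 58.9 in C1+14, 63.3 and 71 in C1C3c and 228 and 275 in C3+14. C1C3b libraries had 357 and 298, C1C3a libraries 3604 and 5167 and FL Dux libraries 28459 and 14975. No 2 of these 7 groups overlapped. Against mCherry the log2 difference was 9.75 (SE 0.28, limma adjusted p = 5.04e-12) in FL Dux and 7.50 (SE 0.28, limma adjusted p = 6.72e-11) in C1C3a. It was 3.77 in C1C3b, 3.39 in C3+14, 1.51 in C1C3c and 1.14 in C1+14, all called higher. Over all alternatives the FL Dux difference ranged from 8.53 to 10.22; the C1+14 difference ranged from 0.71 to 1.36 and was not called under 4 alternatives, among them leaving out C1+14 replicate 2.

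**Figure D3:**
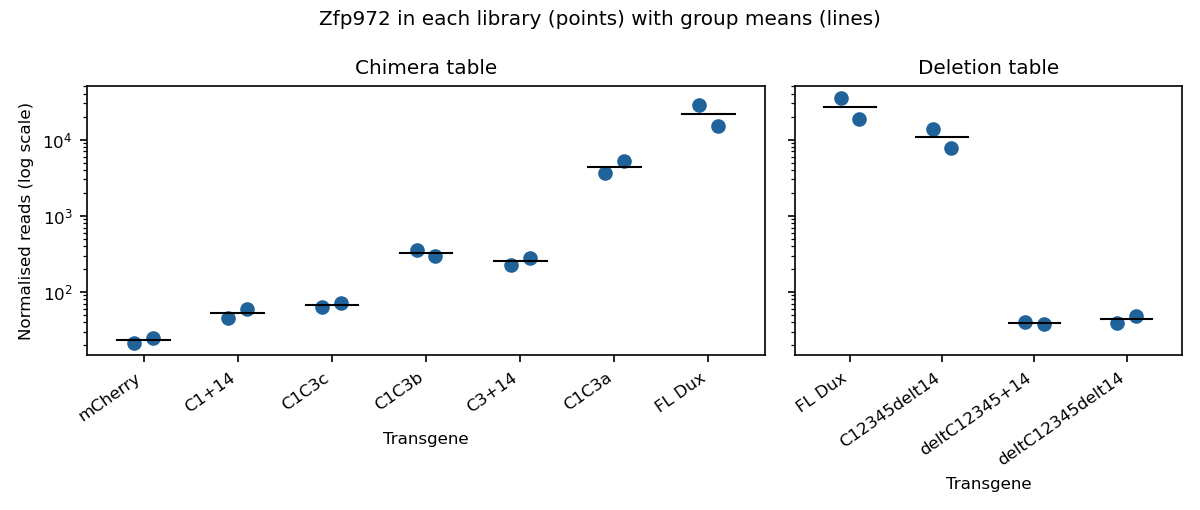
Normalised reads of Zfp972 on a log scale in each library (points) with group means (lines), in the chimera table (left) and the deletion table (right). FL Dux, C1C3a and C12345delt14 libraries lie above 3000 normalised reads, and every other library below 400.

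In the deletion table Zfp972 had 35003 and 18732 normalised reads in FL Dux and 13667 and 7710.5 in C12345delt14. It had 40.7 and 37.3 in deltC12345+14 and 38.6 and 48.1 in deltC12345delt14. The FL Dux and C12345delt14 libraries did not overlap, but their log2 difference of -1.32 (SE 0.35, limma adjusted p = 0.0861) was not called. Against FL Dux, deltC12345+14 differed by -9.32 (SE 0.35, limma adjusted p = 6.36e-07) and deltC12345delt14 by -9.18 (SE 0.35, limma adjusted p = 6.86e-07). Neither of the constructs named deltC12345 overlapped FL Dux or C12345delt14.

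The genes beside Zfp972 were more like it in some constructs than in others. In FL Dux they differed from it: Gm14327, a coding gene that overlaps it on the opposite strand, had 78.1 and 79.8 normalised reads in FL Dux and 71.9 and 76.3 in mCherry and was not called. Gm14326, the next coding gene on the same strand, had 158 and 163 against 669.7 and 661 and was called lower, by 2.05 on the log2 scale. Gm14323, a nearby processed pseudogene, had 278 and 244 against 29 and 24.9 and was called higher, by a log2 difference of 3.23. Gm14323 was called higher in the other 5 constructs too, by more than Zfp972 in C1+14 (1.68 against 1.14) and by about as much in C1C3c (1.54 against 1.51). Gm14327 was called higher in C3+14 (1.98), C1C3a (1.69) and C1C3b (1.71). The library kit marks strand, but whether counting used strand is not given in the sources used here, so reads in the stretch where Zfp972 and Gm14327 overlap cannot be assigned. Zfp971, the closest to Zfp972 in upstream sequence among those compared, had 100.2 and 42.9 in FL Dux and 168 and 211 in mCherry, a difference of -1.51 (SE 0.43, limma adjusted p = 0.00767).

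In C3+14 some of these genes rose and fewer fell, both in smaller shares than over all genes. Against mCherry, 13 of 61 were called higher (21.3%) and 6 lower (9.84%), with a median log2 difference of 0.35, against 29.6% and 17.7% of all genes (median 0.23). Scaled to library totals instead, 4 were called higher and 16 lower, and the median over all genes moved from 0.23 to -0.52, so the balance of directions depends on the scaling; quantile normalization gave 11 and 9. Without C3+14 replicate 2, 8 were higher and 7 lower. Of the 8 pluripotency markers 5 were called lower (median -1.23). The 6 markers of 2-cell-like cells summed to 724971 and 792252 normalised reads in C3+14. Their sums were 1.36e+06 and 725112 in FL Dux, where most of the 61 genes fell, and 0.660 and 0.858 in mCherry. Beside Zfp972, the largest increases were in Zfp943 on chromosome 17, with 715 and 854 normalised reads against 163 and 127 in mCherry, a difference of 2.43 (SE 0.40, limma adjusted p = 0.000151). Zfp958, alone on chromosome 8, had 1037 and 1213 against 263 and 282, a difference of 2.04 (SE 0.30, limma adjusted p = 6.61e-05). Zfp960, alone on chromosome 17, had 5460.3 and 7228 against 1634 and 1618, a difference of 1.95 (SE 0.29, limma adjusted p = 5.85e-05). All of these C3+14 libraries were above both mCherry libraries. The largest decreases were in genes that stand alone: Zfp940 (-2.23), Zfp953 (-1.92), Zfp974 (-1.55) and Zfp961 (-1.54). By cluster, 4 of 10 genes on chromosome 17 and 2 of 16 on chromosome 4 rose, and none of either fell. Of those that stood alone, 5 of 17 rose and 5 fell.

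Tested directly against FL Dux, C3+14 had 51 of 61 genes higher and 1 lower, where 16.8% of all genes were higher and 9.54% lower. The median difference was 1.87 for the 61 genes and 0.08 for all genes. All 16 chromosome 4 genes were higher in C3+14. The lower gene was Zfp972, by -6.36 (SE 0.28, limma adjusted p = 3e-09). The largest increases were in Zfp948 (3.92), Zfp943 (3.65), Zfp947 (3.30) and Zfp960 (3.11); the first 3 lie in the chromosome 17 cluster. Zfp948 had 364 and 473 normalised reads in C3+14 and 36.8 and 19 in FL Dux, with mCherry between them at 158 and 144. The libraries of C3+14 and FL Dux are of different kinds, whose part in this difference cannot be told apart from that of the constructs.

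**Figure D4:**
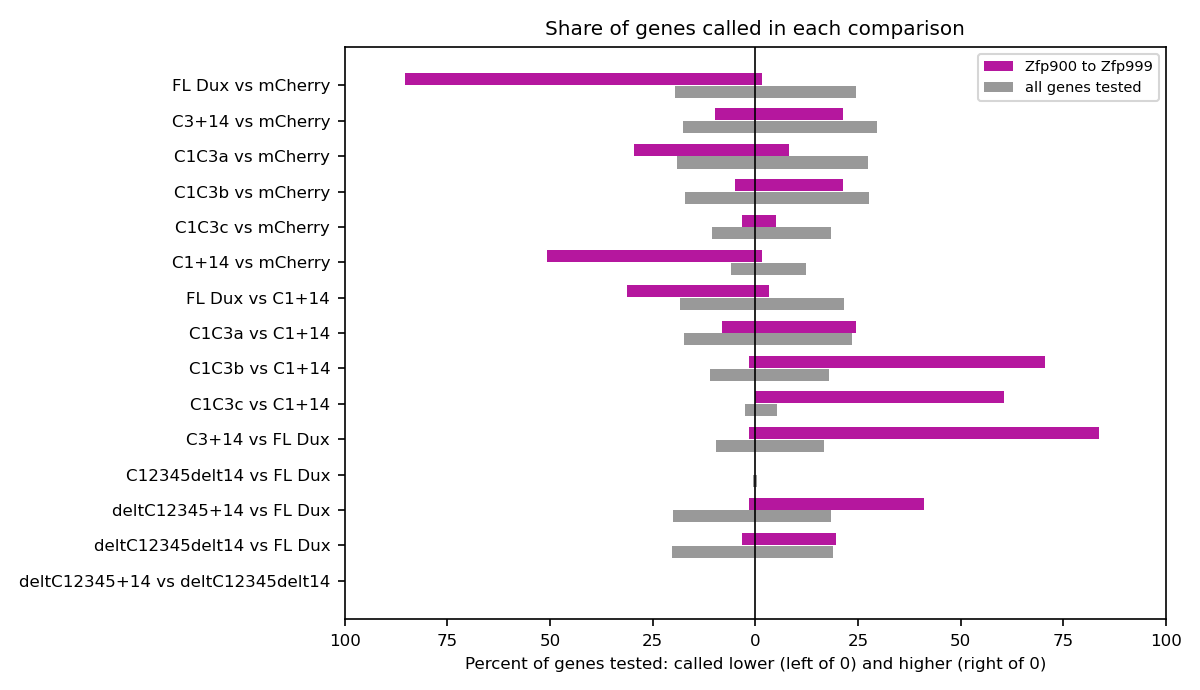
Percent of the tested Zfp900 to Zfp999 genes and of all tested genes called lower (left of 0) and higher (right of 0) in each of the 15 comparisons. The Zfp900 to Zfp999 bar for FL Dux against mCherry reaches 85.2% on the lower side, where all genes reach 19.6%.

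In C1C3a, 18 of 61 genes fell against mCherry (29.5%) and 5 rose (8.2%), against 19% and 27.4% of all genes, and the median was -0.43. Scaled to library totals, 46 were called lower and 1 higher, and quantile normalization gave 25 and 3. Of the pluripotency markers 3 of 8 were called lower. The largest decreases were in Zfp976, with 98.5 and 119 normalised reads against 759 and 752 (-2.79), and in Zfp994 (-2.69), Zfp940 (-2.67) and Zfp974 (-2.47). Genes that stood alone made up 8 of the 18 that fell. Beside Zfp972, the genes that rose were Zfp949 (1.32), Zfp958 (1.20), Zfp954 (1.08) and Zfp986 (1.08). These 4 increases were not called when scaled to library totals.

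In C1C3b, 13 genes rose against mCherry (21.3%) and 3 fell (4.92%), against 27.6% and 17.1% of all genes, with a median of 0.28. On chromosome 17, 5 of 10 rose with a median of 1.13, while 0 of 16 chromosome 4 genes were called (median -0.41). Zfp945 on chromosome 17 had 2065 and 2489 normalised reads against 375 and 425 in mCherry, a difference of 2.50 (SE 0.30, limma adjusted p = 1.17e-05). Zfp943 had 722 and 750.0 against 163 and 127, a difference of 2.35 (SE 0.40, limma adjusted p = 0.000227). Zfp949, alone on chromosome 9 and with none of its 50-base words shared, had 554 and 667 against 186 and 202, a difference of 1.64 (SE 0.24, limma adjusted p = 6.08e-05). The 3 that fell were Zfp940 (-1.75), Zfp961 (-1.55) and Zfp953 (-1.37). Without C1C3b replicate 2, 8 rose and 2 fell. Of the pluripotency markers 6 of 8 were called lower in C1C3b (median -1.99), as many as in FL Dux.

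In C1C3c 5 genes changed against mCherry, 3 higher (4.92%) and 2 lower (3.28%), below the 18.3% and 10.5% of all genes. Zfp945 had 1739.8 and 2485 normalised reads against 375 and 425, a difference of 2.38 (SE 0.30, limma adjusted p = 4.22e-05). The others were Zfp972 and Zfp942 (1.08), which rose, and Zfp961 (-1.41) and Zfp940 (-1.04), which fell. Leaving out C1C3c replicate 2 or either mCherry replicate left 3 called, 2 higher and 1 lower; scaled to library totals, 7 were called higher and 1 lower, and after quantile normalization 3 and 1. Of the pluripotency markers 4 of 8 were called lower.

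With C1+14, 31 genes were called lower than in mCherry and 1 higher, against 5.95% and 12.4% of all genes, and the median was -1.05. This count rested on C1+14 replicate 2: without it 5 were called lower and 0 higher, and without replicate 1 46 were lower and 1 higher. Without mCherry replicate 1 or 2 the calls were 12 and 15. Of the pluripotency markers 1 of 8 was called lower in C1+14. On chromosome 4, 14 of 16 were called lower. Zfp979 had 1779.9 and 737 normalised reads in the C1+14 replicates and 4311 and 4066 in mCherry, a difference of -1.87 (SE 0.32, limma adjusted p = 0.00079). Zfp984 had 1499.9 and 531 against 3254 and 3154 (-1.84), and Zfp980 5875 and 1869 against 11431 and 11606 (-1.80). In these 3 genes both C1+14 libraries were below mCherry, and replicate 2 was far below replicate 1. Zfp980 was not called without replicate 2. Zfp961, alone on chromosome 8, had 1357 and 807 against 3516 and 3427, a difference of -1.73 (SE 0.19, limma adjusted p = 3.33e-05).

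**Figure D5:**
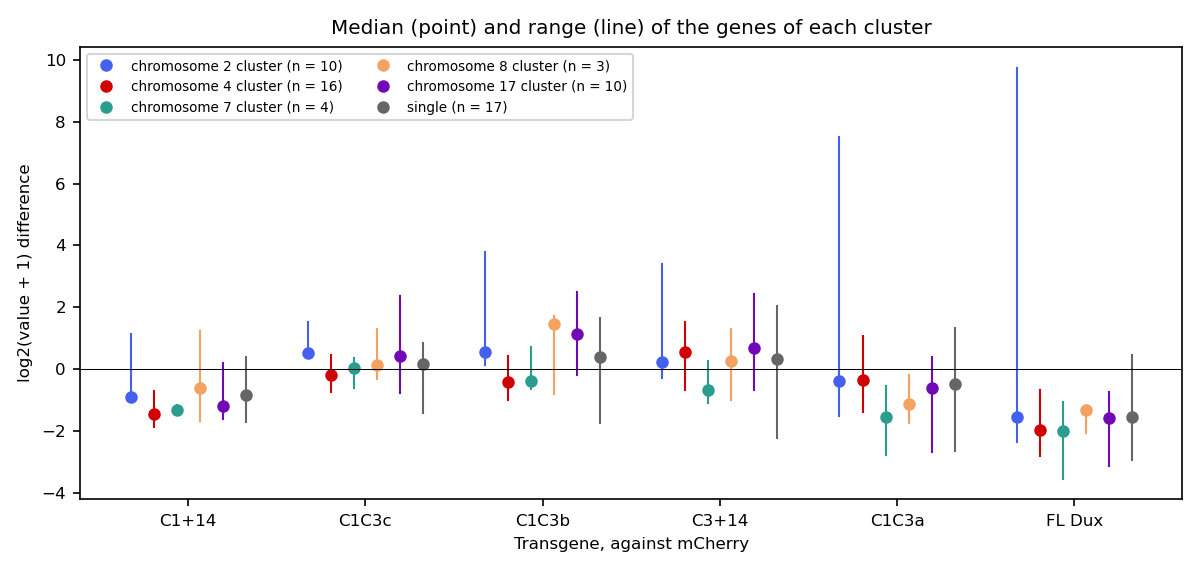
Median (point) and range (line) of the log2(value + 1) difference from mCherry for the tested genes of each cluster and for genes that stand alone, by transgene; the chromosome 13 cluster, with 1 tested gene, is left out. In C1C3b the chromosome 17 median is 1.13 and the chromosome 4 median -0.41, and in FL Dux every median lies below -1.

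Zfp961 was the only gene of the 61 called lower in all 6 comparisons with mCherry, and Zfp972 the only one called higher in all 6; these comparisons share the mCherry libraries. Zfp961 had 628 and 693 normalised reads in FL Dux, 1151 and 1242 in C3+14 and 1180.0 and 1278 in C1C3a. The C1C3b libraries had 1226 and 1139 and the C1C3c libraries 1439.7 and 1189, all below both mCherry libraries. Zfp961 overlaps Gm45694 on the same strand and Cyp4f18 on the opposite strand, and how reads in those stretches were counted is not given. Zfp940 and Zfp953 were called lower in 5 of 6. The Zfp940 call in C1C3c was lost under 7 of 14 alternatives, and the Zfp953 call in C1C3b under 4. Zfp940 had 47.1 and 42.9 in FL Dux, 44.3 and 28.3 in C1C3a, 116 and 107 in C1C3c, 205 and 169 in C1+14 and 228 and 232 in mCherry; C1+14 was the group not called. Of the 61 genes, 4 were called in none of the 6. The shares of all genes tested that were called in 5 or 6 comparisons, or in none, are not given here. These counts therefore do not set the 61 genes apart from other genes.

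For 15 of 61 genes (24.6%) the called direction against mCherry differed between constructs, where this held for 3.35% of all genes tested. Alternatives gave fewer. It held for 12 of 61 after quantile normalization, with a pseudocount of 8 and by DESeq2, and for 13 by edgeR. With a pseudocount of 0.1 or the replicate block it held for 14. Scaled to library totals it held for 11 of 61, which include Zfp937 but not Zfp946, Zfp954, Zfp959, Zfp982 or Zfp986. The 15 were Zfp942, Zfp943, Zfp945, Zfp946 and Zfp948 of the chromosome 17 cluster, Zfp982 and Zfp986 of the chromosome 4 cluster, Zfp963 and Zfp964 of the chromosome 8 cluster, and Zfp938, Zfp949, Zfp952, Zfp954, Zfp959 and Zfp960, which stand alone. Of the 15, 13 were called lower in FL Dux, Zfp938 and Zfp942 being the exceptions that were called lower in C1+14. Zfp945 had 178 and 194 normalised reads in FL Dux, 375 and 425 in mCherry, 381 and 464 in C1C3a and 1066 and 1411 in C3+14. Its log2 difference was -1.10 in FL Dux and 1.62 in C3+14, and only 0.588% of its words were shared. Zfp960 had 563 and 937 in FL Dux, 1634 and 1618 in mCherry, 2675 and 3430.2 in C1C3a and 3230.0 and 4436 in C1C3b. Its difference was -1.16 in FL Dux and 1.95 in C3+14, but 82.7% of its words were shared. Zfp949 had 60.4 and 106 in FL Dux, 186 and 202 in mCherry, 505 and 466 in C1C3a and 596 and 598 in C3+14. In all 3 genes FL Dux lay below mCherry and C3+14 above it. C1+14 had 686 and 304 for Zfp945 and 245 and 185 for Zfp949, which lie on both sides of mCherry, and 1147 and 614 for Zfp960, below mCherry.

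Zfp943 was lower in FL Dux (-1.22) and C1+14 (-1.40) and higher in C3+14 and C1C3b, as given above. Zfp948 was lower in FL Dux (-2.47) and higher in C3+14 (1.45) and C1C3b (1.35). The remaining genes differed as follows. Zfp982, which has been reported to support the expression of stem cell genes, had 433 and 625 normalised reads in FL Dux (-1.54), 2667 and 3456 in C3+14 (1.01) and 1521 and 1504 in mCherry. Zfp986 of the same cluster had 326 and 738 in FL Dux (-1.41), 3336 and 4300.1 in C3+14 (1.53) and 1285 and 1328 in mCherry. For Zfp952 FL Dux and C1C3a were lower (-2.02 and -1.05) and C1C3b higher (1.11). Zfp954 was lower in FL Dux (-1.01) and higher in C3+14 (1.18) and C1C3a (1.08). Zfp946 was lower in FL Dux (-1.07) and higher in C1C3b (1.04), and Zfp959 lower in FL Dux (-1.02) and C1+14 (-1.59) and higher in C3+14 (1.17). Zfp938 was lower in C1+14 (-1.17) and higher in C1C3b (1.20). Zfp942 was lower in C1+14 (-1.08) and higher in C1C3b (1.59). Many of these calls were close to the thresholds. Of 14 alternatives, 8 lost the C1+14 decrease of Zfp942 and 8 that of Zfp982. The C1+14 decrease of Zfp938 was lost under 7, and the FL Dux decrease of Zfp959 under 6. Among the increases, those of Zfp942, Zfp959 and Zfp982 in C3+14 were each lost under 5, and that of Zfp986 in C1C3a under 6. Without FL Dux replicate 1, the FL Dux decreases of Zfp943, Zfp946, Zfp949, Zfp954, Zfp959, Zfp960 and Zfp986 were not called, and without C1+14 replicate 2 those of Zfp938, Zfp942, Zfp943, Zfp959, Zfp982 and Zfp986 in C1+14 were not.

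The small clusters varied among their own members. On chromosome 8, Zfp930 had 179.8 and 151 normalised reads in FL Dux and 697 and 684 in mCherry, a difference of -2.06. Of its neighbours, Zfp964 had 22.4 and 18.9 in mCherry, 5.89 and 9.52 in FL Dux and 68.4 and 72.3 in C1C3b, and Zfp963 had 47.5 and 60 in mCherry, 35.4 and 11.9 in FL Dux and 178 and 125 in C1C3b. Both were called lower in FL Dux and higher in C1C3b, by -1.34 and 1.72 for Zfp964 and by -1.33 and 1.46 for Zfp963. These calls rest on few reads. The Zfp964 call in FL Dux was lost under 8 of 14 alternatives, among them DESeq2, the replicate block and leaving out FL Dux replicate 1. The Zfp963 call in FL Dux was lost under 3, among them leaving out FL Dux replicate 2. In C1C3b the Zfp964 call was lost under 3 alternatives and the Zfp963 call under 2. On chromosome 7 all 4 genes were lower in FL Dux: Zfp976 as above, Zfp936 (-2.10), Zfp975 (-1.89) and Zfp977 (-1.07). The Zfp977 call was lost without FL Dux replicate 1, without either mCherry replicate and after quantile normalization. On chromosome 13, Zfp934 had 165 and 205 in FL Dux and 302 and 264 in mCherry and was not called, with a difference of -0.62 (SE 0.26, limma adjusted p = 0.0519).

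Against C1+14, libraries of the same kind were compared, and the disagreement of the C1+14 replicates entered every count. FL Dux had 19 genes lower and 2 higher, against 18.4% and 21.5% of all genes; without C1+14 replicate 2 there were 36 and 1, and without replicate 1 13 and 4. After scaling to library totals there were 56 lower and 1 higher, while the median over all genes moved from 0.06 to -1.11. The largest decreases were in Zfp974 (-2.87), Zfp956 (-2.28), Zfp976 (-2.16) and Zfp940 (-2.02), and the increases in Zfp972 (8.61) and Zfp958 (1.28). Zfp956 had 20.6 and 47.6 normalised reads in FL Dux and 149 and 163 in C1+14, where the replicates were close. C1C3a had 15 higher and 5 lower, against 23.4% and 17.3%; without C1+14 replicate 2 there were 7 and 10, without replicate 1 32 and 3, scaled to library totals 2 and 22, and after quantile normalization 9 and 9. The direction for C1C3a therefore depended on the replicate and on the scaling.

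C1C3b had 43 genes higher than C1+14 and 1 lower, against 17.9% and 11% of all genes, and it had 17 and 1 without C1+14 replicate 2 and 51 and 1 without replicate 1. Without C1C3b replicate 2 it had 28 and 1, and scaled to library totals 25 and 1. Zfp943 had 722 and 750.0 normalised reads in C1C3b and 89.9 and 32.2 in C1+14, a difference of 3.74 (SE 0.40, limma adjusted p = 1.15e-05). Zfp942 (2.67), Zfp972 (2.63) and Zfp947 (2.59) followed, and Zfp940 was lower (-1.45). C1C3c had 37 higher and 0 lower, against 5.37% and 2.46%. Without C1+14 replicate 2, 5 were higher, without replicate 1 46, and without C1C3c replicate 2, 4. Zfp943 (2.41), Zfp945 (2.18), Zfp942 (2.16) and Zfp944 (1.91) differed most, all of them in the chromosome 17 cluster.

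In the deletion table, the test between C12345delt14 and FL Dux called 0 of these 61 genes by limma and 0 by edgeR. Of the 61, 17 had an unadjusted limma p under 0.05, as did 24.9% of all 19833 genes, and DESeq2 called 3 higher and 1 lower, where it called 6.52% of all genes. By limma 0.338% of all genes were called higher and 0.62% lower, and by edgeR 2.35% were called. The median difference was 0.50, with 51 of 61 genes above 0, against -0.04 over all genes and 0.44 over the other Zfp genes. Without FL Dux replicate 2, 5 genes were called higher and 1 lower.

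In the constructs named deltC12345, genes of this group were called higher than in FL Dux more often than lower. With deltC12345+14, 25 of 61 were called higher and 1 lower, against 18.4% and 20% of all genes, with a median of 0.95 against -0.08 over all genes. Scaled to library totals 54 were higher, while the median over all genes moved to 1.11. Zfp974 had 91.9 and 147 normalised reads in deltC12345+14 and 12.7 and 17.9 in FL Dux, a difference of 2.86 (SE 0.41, limma adjusted p = 0.00118). Zfp976 had 612 and 533 against 56.2 and 112, a difference of 2.83 (SE 0.39, limma adjusted p = 0.000955). Zfp956 (2.44) and Zfp948 (2.38) followed, and Zfp972 was the gene that fell. Of the pluripotency markers 7 of 8 were called higher (median 1.57), and all 6 markers of 2-cell-like cells lower, at 0 in both deltC12345+14 libraries. On chromosome 4, 7 of 16 genes rose, and of those that stood alone 10 of 17.

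With deltC12345delt14, 12 genes were called higher than in FL Dux and 2 lower, against 18.8% and 20.3% of all genes, with a median of 0.32. Without deltC12345delt14 replicate 1, 5 were higher and 5 lower; without replicate 2, 17 and 1; and without FL Dux replicate 1, 6 and 1. Scaled to library totals, 42 were higher and 1 lower. With the kind of library as a term the counts were 9 higher and 4 lower for this construct and 23 and 1 for deltC12345+14. The largest increases were in genes that stand alone: Zfp974 (2.85), Zfp956 (2.75) and Zfp940 (2.32), followed by Zfp976 of the chromosome 7 cluster (2.14). Zfp956 had 254 and 282 normalised reads in this group and 25.4 and 59.6 in FL Dux. The genes that fell were Zfp972 and Zfp958 (-1.42), the latter with 258 and 115 against 538 and 396; Zfp958 was not called without that construct's replicate 2, without FL Dux replicate 1 or when scaled to library totals. Of the pluripotency markers 7 of 8 were called higher (median 1.44). Both comparisons share the FL Dux libraries.

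The 2 constructs named deltC12345 gave no call against each other. Between deltC12345+14 and deltC12345delt14 limma, edgeR and DESeq2 each called 0 of 61 genes, and limma 0% of all genes higher and 0% lower. Without either replicate of either construct limma also called 0 of the 61. At an unadjusted limma p under 0.05 there were 24 of the 61 genes and 543 of all 19833 genes. The median difference was 0.67, with 55 of 61 above 0, and 0.99 on chromosome 4, and the deltC12345delt14 replicates differed from each other by a median of -0.69. Zfp990 had 6296 and 6629 normalised reads in deltC12345+14 and 4921 and 2315 in deltC12345delt14.

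Genes that act with KRAB zinc fingers in silencing were followed beside them. In FL Dux, 6 of 24 tested were called lower (25%) and 1 higher (4.17%) against mCherry, with a median of -0.11. Among all genes 19.6% were called lower and 24.5% higher, so the share called lower was near that of all genes. Trim28, the co-repressor that KRAB binds, was the one that rose (1.09). The 6 that fell were Resf1 (-2.15), which is known to restrain endogenous retroviruses, Zfp57 (-1.73), a KRAB zinc finger protein of imprinted genes, Morc3 (-1.59) and Atrx (-1.29), which act in chromatin silencing, Smarcad1 (-1.33), a chromatin remodeller, and Cbx5 (-1.03), a heterochromatin protein. Against mCherry the counts called lower and higher were 5 (20.8%) and 1 for C3+14, 6 (25%) and 2 for C1C3a, 7 (29.2%) and 1 for C1C3b, 3 (12.5%) and 0 for C1C3c, and 5 (20.8%) and 0 for C1+14. Among all genes 17.7%, 19%, 17.1%, 10.5% and 5.95% were called lower in the same order. The shares of all genes called higher were 29.6%, 27.4%, 27.6%, 18.3% and 12.4%. For C3+14 and C1C3c too the share called lower was near that of all genes. The share called higher was below that of all genes in every construct. Without C1+14 replicate 1 the C1+14 count was 6 lower, and without replicate 2 it was 3. After scaling to library totals, 15 were lower in FL Dux, 13 in C3+14 and 11 in C1C3a. None of the 24 was higher in these 3 groups, so the increases of Trim28 and Zfp809 were not called on that scale. After quantile normalization, and also by edgeR, 0 were higher in FL Dux and 1 in C1C3a. The Trim28 increase in FL Dux was therefore not called under these alternatives either. Zfp57 was called lower in all 6, from -3.87 in C1C3b to -1.41 in C1+14. Zfp809, a KRAB zinc finger protein that silences murine leukaemia proviruses, rose in C3+14 (1.66) and C1C3a (1.89). Between the C1+14 replicates, the median of these 24 genes differed by -0.04, where that of the Zfp900 to Zfp999 genes differed by -1.18.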

How the data were processed

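Poly(A) RNA-seq values were analysed as deposited: a signal per gene that the authors made by dividing read counts by 1 size factor per library. Per the submitters' processing notes, Trim Galore 0.5.0, FastQC, DESeq2 and mm10 were used; the aligner, counter and annotation are not given in the sources used here. Whole reads were recovered from 100% of 574693 values above 0 (tolerance 0.02 reads). No sample column was left unused. Symbols and coordinates are from GENCODE M21 (GRCm38), which matched 99.5% of rows; promoter sequences are from RefSeq (GRCm38.p6).

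Values were tested as log2(value + 1) by limma 3.58.1 under R 4.3.3, using lmFit and a trended eBayes, over genes of at least 10 in at least 2 libraries (21584 for the chimera libraries, 19833 for the deletion libraries). The spread was shared by all groups, and p-values were Benjamini-Hochberg adjusted over all genes tested. A call needed an adjusted p under 0.05 and an absolute log2 difference of at least 1. This scale understates changes of low genes. All 15 comparisons stayed within 1 table, since tables were scaled separately. With 2 against 2, an exact permutation test cannot give a p below 0.333, so no such test is given. The p-values printed for single genes are from limma and rest on the shared spread. The fit was tested on simulated data with a fixed spread shared by all genes, which gives no error rate for these libraries. Replicates differed by more than sampling noise (chi-square per gene 3.31 to 78.9).

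Genes sharing 50-base words were found from the transcripts of the annotation. KRAB and C2H2 patterns were read from the longest reading frame of each gene. Named genes are, for each comparison, up to 4 called increases and 4 called decreases whose libraries did not overlap and whose higher group averaged 50 or more, the 3 highest per kb, those whose called direction differed between constructs, and all members of clusters of 4 or fewer. Alternatives used edgeR 4.0.16 and DESeq2 1.42.0 on recovered reads, other scalings, pseudocounts, filters and sets of libraries. The genes, lists and rules were chosen with earlier results of these data known.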

Additional observations from a re-analysis of the deposited data

How the results depend on the processing

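Over the comparisons, counts of genes called stayed within 1.5 times of those reported under most alternatives; the exceptions follow. Leaving out 1 library at a time gave 41 to 51 calls for FL Dux against mCherry, 15 to 17 for C3+14, 19 to 22 for C1C3a, 10 to 13 for C1C3b, 3 to 5 for C1C3c and 5 to 47 for C1+14. Against C1+14 it gave 17 to 37 for FL Dux, 17 to 35 for C1C3a, 18 to 52 for C1C3b and 4 to 46 for C1C3c, and for C3+14 against FL Dux 47 to 52. In the deletion table it gave 0 to 6 for C12345delt14, 22 to 34 for deltC12345+14 and 7 to 18 for deltC12345delt14, each against FL Dux, and 0 to 0 between the last 2. Scaling to library totals, chosen after seeing the data, gave 47 calls for C1C3a, 8 for C1C3c and 19 for C1+14 against mCherry, 57 for FL Dux and 26 for C1C3b against C1+14, and 55 for deltC12345+14 and 43 for deltC12345delt14 against FL Dux. In some comparisons it moved the median over all genes by over 0.1, for example from 0.09 to -0.87 for FL Dux against mCherry and from 0.12 to -0.74 for C1C3a. Without a filter on low values C1C3c against C1+14 had 21 calls, and with only its own libraries in the fit 3, where fewer samples give the spread. In the same way C12345delt14 had 1 call and deltC12345delt14 9 against FL Dux, and DESeq2 gave C12345delt14 4. Quantile normalization moved C1C3a against C1+14 from 15 higher and 5 lower to 9 and 9, and edgeR gave 9 and 8; for C3+14 against mCherry they gave 11 and 9, and 11 and 7. The cause was not tested. Among 122 values of named genes none reversed, and 50 lost their call under at least 1 alternative.

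With the replicate number as a block, counts were 52 for FL Dux, 19 for C3+14, 23 for C1C3a, 17 for C1C3b, 5 for C1C3c and 33 for C1+14 against mCherry, and 20, 20, 45 and 34 for FL Dux, C1C3a, C1C3b and C1C3c against C1+14. The replicate block gave 52 for C3+14, 0 for C12345delt14, 27 for deltC12345+14 and 13 for deltC12345delt14 against FL Dux. The labels give the replicate numbers no further meaning. Deviations of same-numbered libraries correlated across genes from -0.10 to 0.05 (chimera) and from -0.57 to 0.14 (deletion). In the deletion table the low kind of library is replicate 2 of deltC12345+14 and replicate 1 of deltC12345delt14, so a number does not mark the same kind in both.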
